A study of Mus musculus with 47 samples.

Results

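The interferon response in the mouse cortex was followed through 9 genes, *Irf7*, *Irf9*, *Usp18*, *Ifit1*, *Ifit3*, *Isg15*, *Oasl2*, *Ifitm3* and *Bst2*, in mice with and without drug-induced loss of microglia and over the day. The genes were chosen by name, matched by symbol to the Ensembl identifiers of the annotation GENCODE M21, and were 9 of the 53068 genes that the deposited TPM and count tables share. All 9 reached the mean of at least 1 TPM that was required for testing, as did 14580 genes in all. TPM is a share of a library's transcripts, scaled by gene length and by the library, so that levels can be compared between genes as well as between mice. The data were bulk RNA-seq libraries from the microdissected cortex of 47 male C57BL/6J mice, 1 library per mouse. The mice were 2.5 months old when they were put on either control chow (23 mice) or chow with 1200 ppm PLX5622 (24 mice), which they ate for 10 days. PLX5622 inhibits the CSF1 receptor, a kinase that microglia need to survive. Mice were collected at Zeitgeber times (ZT) 2, 6, 10, 14, 18 and 22, where ZT0 is lights on and ZT12 is lights off, with 4 mice per diet and time, apart from control ZT14, for which 3 libraries were analysed. The labels name no infection and no interferon treatment, so the levels are those of tissue with no named stimulus of the pathway. Microglia were reduced by a drug and not by a genetic change, and the drug also acts on other cells that carry the CSF1 receptor.

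Interferons are secreted proteins that cells release on contact with viruses or with nucleic acid in the wrong place. Type I interferons bind the receptor chains IFNAR1 and IFNAR2 and, through JAK kinases, activate a complex that contains IRF9 and binds the interferon-stimulated response element in the promoters of many genes. A low level of this programme is present in healthy tissue, and in the brain it can be raised in microglia, astrocytes, endothelial cells and neurons.

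The element to which the IRF9 complex binds was looked for as the letters GAAA, any 2 bases and GAAA again, on both strands and with overlapping matches counted, in RefSeq promoters on GRCm38.p6, from 250 bases before to 50 bases after each start. Of all 32851 promoters, 3.44% held at least 1 match. A promoter was given for 8 of the 9 genes, and 5 of these held a match, *Ifit1* with 2, *Ifit3* with 2, *Isg15* with 3, *Bst2* with 2 and *Ifitm3* with 2. The stretches around the matches that lay before the start are printed because they hold the letters through which the pathway is known to act on its targets. Each is on the strand of the gene, 5′ to 3′, with the matches in capitals, and matches that overlap run together.
Ifit1, chr19:34640770-34640828: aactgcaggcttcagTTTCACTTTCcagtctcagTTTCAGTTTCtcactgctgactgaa
Ifit3, chr19:34583358-34583431: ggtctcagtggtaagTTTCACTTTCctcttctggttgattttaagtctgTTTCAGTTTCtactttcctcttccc
Isg15, chr4:156200860-156200911: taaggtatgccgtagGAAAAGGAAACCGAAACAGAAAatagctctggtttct
Bst2, chr8:71537572-71537617: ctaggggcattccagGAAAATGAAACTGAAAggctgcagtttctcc
In *Ifit1* and *Ifit3* the matches read on the opposite strand, and in *Isg15* and *Bst2* they read on the strand of the gene. The matches describe these letters only, and the windows of *Irf7*, *Irf9* and *Oasl2* held none. Of the letters bound by clock proteins, CACGTG (the E-box, in 7.15% of all promoters) and TTATGTAA (the D-box, 0.938%) were found in the window of no member, and AGGTCA (RORE, 16.3%) in that of *Irf9* only, with 2 matches.

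The counts of a library summed to 16597987 at the least and 27626161 at the most. Microglial transcripts fell with PLX5622, as 20 of 20 microglial marker genes passed the test. *Csf1r*, which encodes the drug's target, went from 51.6 TPM ± 13.6 (SD, n = 23) to 4.19 TPM ± 2.77 (SD, n = 24), and the summed level of the 20 markers ranged from 691 to 1028 TPM in control mice and from 26.5 to 156 TPM in PLX5622 mice. In bulk tissue, fewer cells of a type and less RNA per cell cannot be told apart. For microglia, the study also counted stained cells in the other hemisphere and reported that most were lost. Of the markers of other cells, 3 of 3 tested border macrophage genes fell, 0 of 6 leukocyte and blood genes, 0 of 8 endothelial genes, 0 of 8 mural and fibroblast genes and 0 of 8 neuronal genes passed the diet test, and 1 of 7 astrocyte, 1 of 6 oligodendrocyte and 3 of 7 choroid plexus genes rose. The summed choroid plexus level ranged from 67.8 to 1190 TPM in control mice and from 147 to 1276 TPM in PLX5622 mice, and neuronal markers summed to at least 3708 TPM in every library.

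The 9 interferon response genes differed between the diets by -0.19 to 0.11 in log2(TPM + 1). None passed the test of diet (limma on log2(TPM + 1) with 24-h time terms, Benjamini-Hochberg over all genes), where 3.45% of all genes did. With no adjustment, 1 gene, *Bst2*, had a p under 0.05, as had 16.2% of all genes, and on the counts DESeq2 (5.82% of all genes called) and 2 of 3 edgeR runs (6.8% and 6.83%) called that gene after adjustment. Of the 9 differences, 7 were below 0, with a median of -0.01 in log2(TPM + 1), against a median of 0.03 over all genes tested. The levels of the 2 diets overlapped in every gene.

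Among the regulators, *Irf7* (chr7:141262706-141266481, minus strand) encodes the transcription factor that amplifies type I interferon production. It ranged from 1.57 to 3.94 TPM, with a median of 2.45 TPM, in control mice and from 1.69 to 3.76 TPM, with a median of 2.30 TPM, in PLX5622 mice. The ranges nearly coincided, and the difference in log2(TPM + 1) was -0.0031 (95% interval -0.14 to 0.13). *Irf9* (chr14:55603571-55610030, plus strand), the DNA-binding subunit of the complex named above, had a median of 4.89 TPM (3.29 to 6.69) in control mice and 4.61 TPM (3.07 to 6.06) in PLX5622 mice. Its difference was -0.07 (95% interval -0.19 to 0.05). *Usp18* (chr6:121245906-121270917, plus strand) encodes the protease that removes ISG15 from proteins and also damps signalling at the type I receptor. It was the lowest of the 9, with a median of 1.08 TPM (0.691 to 1.996) in control mice and 1.06 TPM (0.612 to 1.70) in PLX5622 mice, and a difference of -0.05 (95% interval -0.17 to 0.07). Only 12 to 44 reads per library were counted on *Usp18*, which limits what could be detected. Exons of *Irf7* overlap *Phrf1* and those of *Usp18* overlap Gm44148 on the opposite strand, and exons of *Irf9* overlap *Rnf31* on the same strand. Whether counting used strand is not given in the sources used here, so reads in these overlaps are uncertain.

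Among the effectors, *Ifit1* (chr19:34640871-34650009, plus strand), whose protein binds foreign RNA caps, and *Isg15* were the 2 members with a higher fitted level in PLX5622 mice. *Ifit1* had a median of 1.77 TPM (1.31 to 2.90) in control mice and 2.13 TPM (0.855 to 2.97) in PLX5622 mice, and 3 PLX5622 mice lay below and 1 above all control mice. The difference of 0.11 (95% interval -0.04 to 0.25, adjusted p = 0.472 in limma) did not pass. *Ifit3* (chr19:34583531-34588731, plus strand) encodes a partner of the other IFIT proteins. Its medians were 10.1 TPM (7.06 to 14.6) and 9.74 TPM (7.0004 to 15.98) in control and PLX5622 mice, with a difference of -0.0047 (95% interval -0.13 to 0.12). *Isg15* (chr4:156199424-156200818, minus strand), a ubiquitin-like protein that is attached to other proteins, had medians of 7.20 TPM (5.33 to 10.7) and 7.72 TPM (4.72 to 10.5), and its difference was 0.05 (95% interval -0.08 to 0.17). For *Ifit3* and *Isg15* the intervals leave room for a change of at most 0.17 in either direction.

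*Ifitm3* (chr7:141009586-141010770, minus strand), a membrane protein that blocks virus entry, had the highest level of the 9, with a median of 34.8 TPM (24.8 to 45.1) in control mice and 33.7 TPM (26.4 to 44.9) in PLX5622 mice. Its difference was -0.0072 (95% interval -0.13 to 0.12). *Oasl2* (chr5:114896936-114912234, plus strand), a relative of the oligoadenylate synthetases, had a median of 2.31 TPM (1.19 to 3.94) in control mice and 2.13 TPM (1.08 to 3.64) in PLX5622 mice. Its mean was lower in PLX5622 mice at 6 of 6 Zeitgeber times, but the difference of -0.15 (95% interval -0.32 to 0.02, adjusted p = 0.390 in limma) did not pass. The 2 tables also differed most for this gene. The ratio of *Oasl2* TPM to its share of the counts (CPM) varied 3.18-fold between libraries, from 0.381 in control ZT18 replicate 3 (1.19 TPM, 52 reads) to 1.21 in control ZT14 replicate 3 (2.48 TPM, 47 reads), while that of *Ifit1* varied 1.26-fold. Its difference on the counts with edgeR was smaller, at -0.06.

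*Bst2* (chr8:71534255-71537456, minus strand) encodes tetherin, which holds budding viruses on the cell surface, and had the smallest p of the 9. It ranged from 9.36 to 16.5 TPM, with a median of 12.1 TPM, in control mice and from 8.78 to 13.6 TPM, with a median of 10.7 TPM, in PLX5622 mice. The mean was lower in PLX5622 mice at 5 of 6 Zeitgeber times, and 7 of the 24 PLX5622 mice lay below all control mice, but the groups overlapped. The mean went from 12.5 TPM ± 2.14 (SD, n = 23) to 10.8 TPM ± 1.56 (SD, n = 24), or 86.1% of control, with a difference of -0.19 (standard error 0.059, 95% interval -0.31 to -0.07). The unadjusted p was 0.00196 and the adjusted p 0.0547 in limma, just above the threshold of 0.05. The call depended on the processing, because edgeR with an expression filter gave an adjusted p of 0.0234 (with 6.8% of all genes called) and DESeq2 gave 0.0185 (5.82%), while edgeR with no filter gave 0.0602. The gene was also called by edgeR with DESeq2 size factors (6.83% of all genes called) and by limma after median-of-ratios scaling (5.11%), upper-quartile scaling (5.1%) or with the replicate number as a block (3.96%). Over the same mice the microglial marker sum fell from a median of 854 to 82.4 TPM, while the choroid plexus sum was 498 TPM in control and 805 TPM in PLX5622 mice; the part of either in the *Bst2* difference was not tested.

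**Figure D1:**
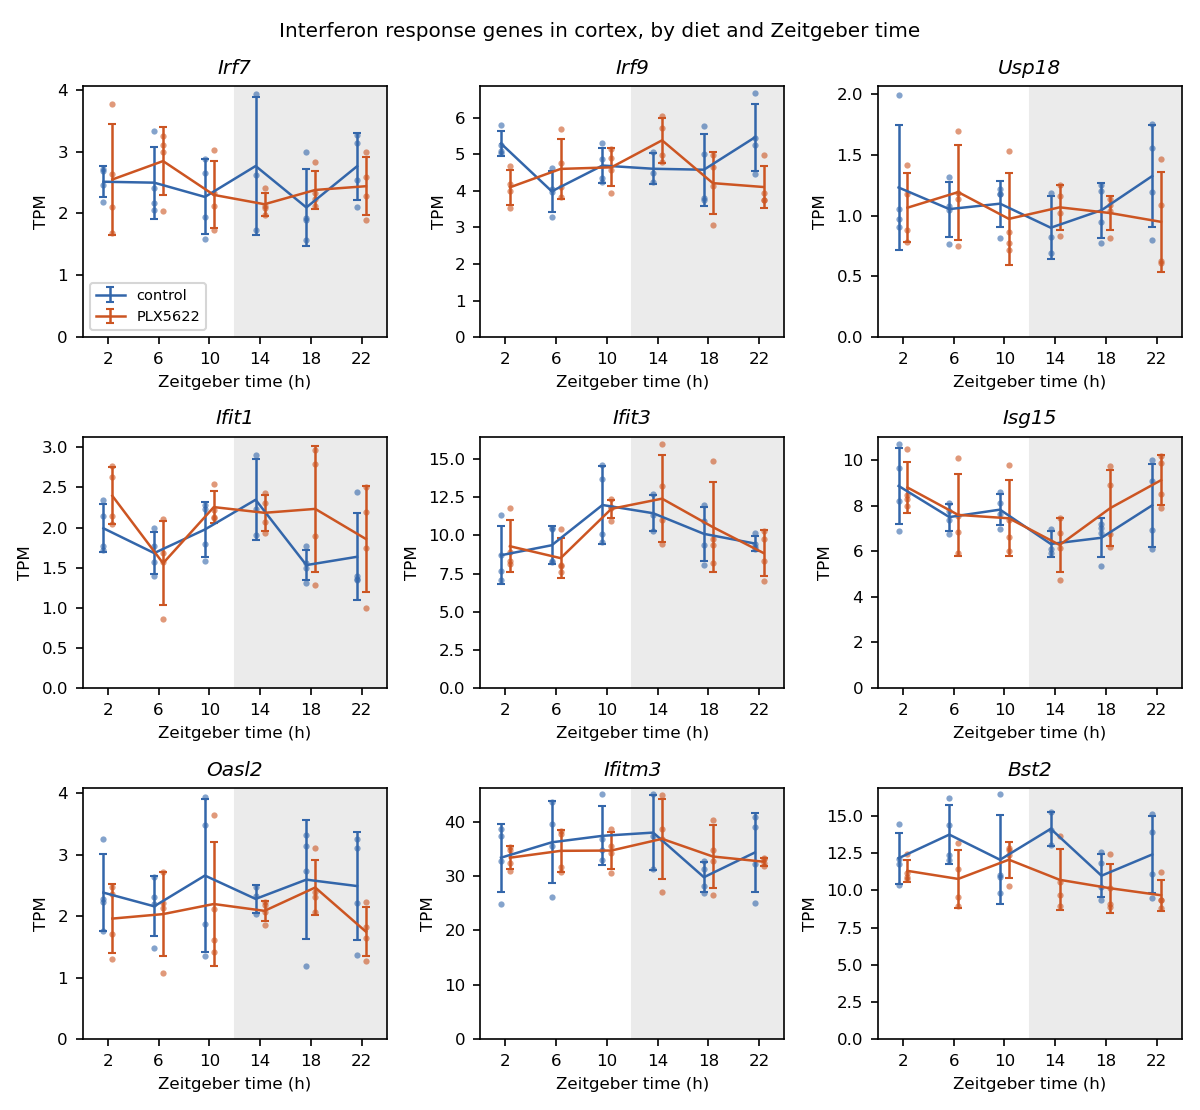
Levels of the 9 interferon response genes in TPM (y axes, from 0) against Zeitgeber time in hours (x axes), with each mouse as a point, and lines and bars as the mean ± SD of each diet and time (n = 4, control ZT14 n = 3; dark phase shaded). The 2 diets overlap in all 9 genes, *Bst2* lies lower in PLX5622 mice at 5 of 6 times, and *Ifit3* and *Isg15* move over the day in both diets.

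The rest of the interferon pathway was read from lists by role, 137 genes in all, of which 82 were tested. In these, 13 genes fell with PLX5622 and 0 rose, where 2.58% of all genes fell and 0.871% rose. The median difference over the 82 genes was -0.04. None of the 21 interferon ligand genes reached a mean of 1 TPM, and 16 of them were listed at 0 TPM in all 47 libraries, among them *Ifnb1*. The highest count of any ligand in any library was 4 reads.

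The receptor and JAK-STAT list lost 2 of 11 tested genes. *Ifngr1*, a chain of the receptor for interferon gamma, went from 10.3 TPM ± 1.42 (SD, n = 23) to 7.42 TPM ± 1.33 (SD, n = 24), and 19 of 24 PLX5622 mice lay below all control mice (difference -0.43, adjusted p = 2.64e-08 in limma). *Il10rb*, which serves the receptors of interferon lambda and interleukin 10, fell by 0.21 on the log2 scale. Of the list of interferon regulatory factors and IRF2-binding proteins, 2 of 8 tested genes fell, and both encode regulatory factors that act in myeloid cells. *Irf8*, a lineage factor of microglia, went from 3.73 TPM ± 0.799 (SD, n = 23) to 0.813 TPM ± 0.298 (SD, n = 24), and *Irf5* from 2.99 TPM ± 0.585 (SD, n = 23) to 0.658 TPM ± 0.447 (SD, n = 24). All 24 PLX5622 mice lay below all control mice for *Irf8*, and 23 of 24 for *Irf5*. The *Irf7* and *Irf9* values above stand beside these as members of the same family that did not pass.

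Of the genes that sense nucleic acid or relay that signal, 2 of 8 fell. *Tmem173*, which encodes STING, the adaptor for DNA in the cytosol, went from 3.38 TPM ± 1.59 (SD, n = 23) to 0.809 TPM ± 0.461 (SD, n = 24), and *Aim2*, an inflammasome sensor of DNA, fell by 0.44 on the log2 scale. Of the genes that limit the response or attach ISG15 to proteins, 1 of 7 fell, *Ptpn6*, a phosphatase of blood-derived and myeloid cells, by 1.47. In the list of other interferon-stimulated genes, 6 of 48 fell. *Psmb8* and *Psmb9*, subunits of the immunoproteasome, fell by 0.57 and 0.30, *B2m*, the light chain of MHC class I, by 0.39, *Ifi30*, a lysosomal thiol reductase of antigen-presenting cells, by 0.63, and *Slfn2* and *Irgm2*, a Schlafen gene and an immunity-related GTPase, by 0.28 and 0.19. The drop of *B2m* took its mean from 202 to 154 TPM, and 9 of 24 PLX5622 mice lay below all control mice.

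**Figure D2:**
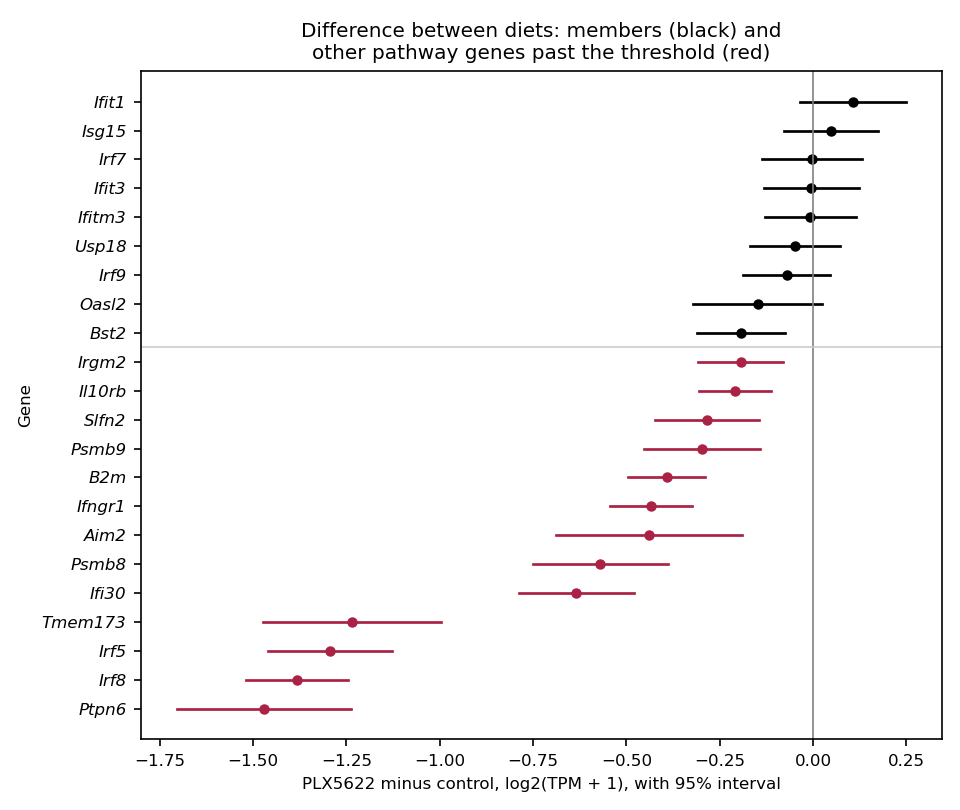
Difference between diets (PLX5622 minus control) in log2(TPM + 1) on the x axis, with points for the estimate and lines for the 95% interval, for the 9 interferon response genes (black) and the 13 other pathway genes past the threshold (red). The 9 lie between -0.19 and 0.11. The red genes were picked by the diet threshold and run from -0.19 (*Irgm2*) to -1.47 (*Ptpn6*). The median over all 82 pathway genes tested was -0.04.

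A 24-h rhythm over both diets was called in 2 of the 9 genes, *Ifit3* and *Isg15*, where 5.26% of all genes were called. The 2 peaked at nearly opposite times. *Ifit3* was lowest at ZT6 with a mean over both diets of 8.93 TPM and highest at ZT14 with 11.99 TPM, a 1.34-fold range. At ZT6 the control mice had 8.23, 8.31, 10.4 and 10.5 TPM and the PLX5622 mice 7.58, 7.98, 8.04 and 10.4 TPM. At ZT14 the control mice had 10.3, 11.4 and 12.7 TPM and the PLX5622 mice 9.42, 10.98, 13.2 and 15.98 TPM. The highest 3 mice at ZT6 overlapped the lowest 2 at ZT14. The fitted amplitude, the height of the fitted peak above the fitted mean, was 0.22 in log2(TPM + 1) (standard error 0.045), with the peak at ZT 13.2 (standard error 0.778 h), shortly after lights off (adjusted p = 0.00569 in limma). In each diet fitted apart, the amplitude was 0.20 (standard error 0.066) in control mice, with a peak at ZT 12.9, and 0.23 (standard error 0.064) under PLX5622, with a peak at ZT 13.4.

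*Isg15* was highest at ZT2 with a mean over both diets of 8.83 TPM and lowest at ZT14 with 6.29 TPM, a 1.40-fold range. At ZT2 the control mice had 6.90, 8.20, 9.64 and 10.7 TPM and the PLX5622 mice 7.97, 8.30, 8.44 and 10.5 TPM. At ZT14 the control mice had 5.91, 6.08 and 6.97 TPM and the PLX5622 mice 4.72, 6.13, 6.81 and 7.44 TPM. The values at ZT2 lay above most of those at ZT14. The fitted amplitude was 0.18 (standard error 0.044) with the peak at ZT 1.47 (standard error 0.944 h), shortly after lights on (adjusted p = 0.0304 in limma). The call was lost in limma with no filter on low genes (adjusted p = 0.0603, 1.73% of all genes called) and when any of 5 libraries was left out, with adjusted p-values up to 0.0686. The control and PLX5622 amplitudes were 0.17 and 0.21, with peaks at ZT 3.01 and 0.181.

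The rhythm of *Ifit3* was shared by *Ifit3b* on the same chromosome, a near-identical copy, with an amplitude of 0.21 and a peak at ZT 14.2 (adjusted p = 0.00243 in limma). Of the 50-base stretches of *Ifit3* transcripts, 51.2% occur in *Ifit3b* too, so reads could be split between them and the 2 rhythms are not separate observations. Shared stretches made up 7.13% for *Ifit1* (with *Ifit1bl1* and *Ifit1bl2*) and 10.0% for *Ifitm3* (with *Ifitm2* and gene copies), and at most 3.96% for the other members. Among the other pathway genes, *Ifitm1*, a close relative of *Ifitm3*, and *Ifit3b* were the 2 calls in the 82 genes tested. Over all genes tested, 5.26% were called. *Ifitm1* had a mean over both diets of 6.90 TPM at ZT2 and 14.01 TPM at ZT14, a 2.03-fold range, with an amplitude of 0.41 (standard error 0.066) and a peak at ZT 14.1 (adjusted p = 0.000166 in limma). *Ifitm3*, in the same cluster on chromosome 7, had an amplitude of 0.09 (standard error 0.043, adjusted p = 0.419 in limma). Of the endothelial markers, 2 of 8 were called for a rhythm, *Cldn5* with a peak at ZT 0.653 and *Ly6c1* with a peak at ZT 15.99; their part in the rhythms of *Ifit3*, *Isg15* and *Ifitm1* was not tested. No microglial marker was called.

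**Figure D3:**
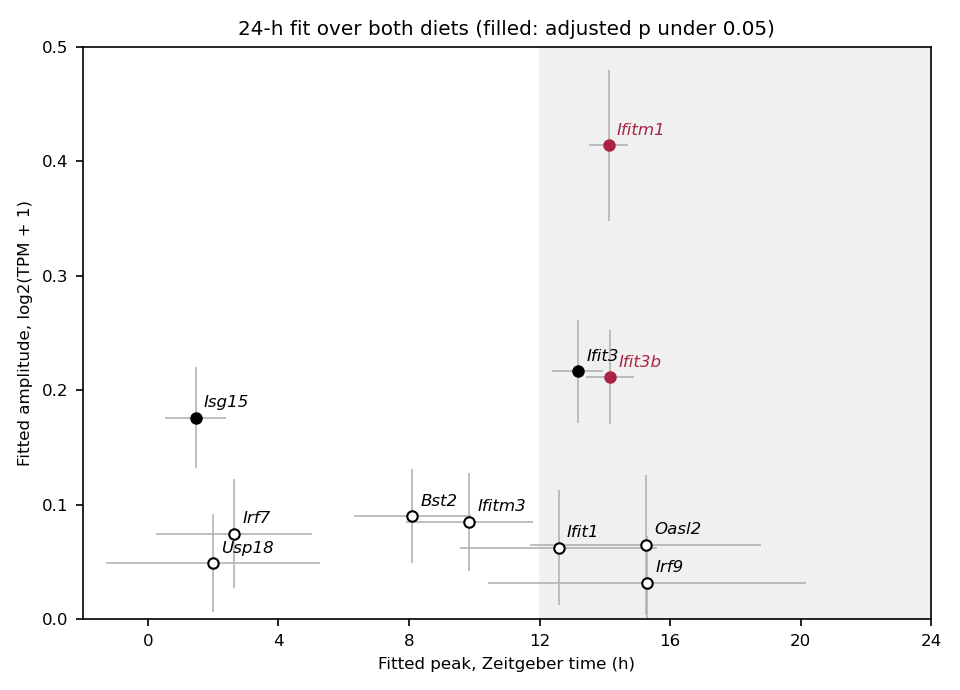
Fitted amplitude in log2(TPM + 1) (y axis) against the fitted time of the peak in hours of Zeitgeber time (x axis) over all 47 mice, for the 9 interferon response genes (black) and for *Ifit3b* and *Ifitm1* (red), with bars of 1 standard error and filled points for an adjusted p under 0.05 (dark phase shaded). *Isg15* peaks at ZT 1.47, and *Ifit3*, *Ifit3b* and *Ifitm1* between ZT 13.2 and 14.2.

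A change of rhythm with diet was called in none of the 9 genes by limma, edgeR or DESeq2, and in 0 of all genes tested in limma (0%). With no adjustment, 1 gene, *Irf9*, had a p under 0.05, as had 4.59% of all genes (unadjusted p = 0.00881 in limma). Its fitted peak was at ZT 22.2 (standard error 1.83 h, amplitude 0.11) in control mice and at ZT 11.8 (standard error 1.47 h, amplitude 0.14) in PLX5622 mice. At ZT2 the control mice had 5.03, 5.09, 5.26 and 5.80 TPM and the PLX5622 mice 3.54, 3.99, 4.18 and 4.68 TPM. At ZT14 the order was the other way round, with 4.25, 4.49 and 5.08 TPM in control mice and 4.78, 4.97, 5.73 and 6.06 TPM in PLX5622 mice. The diets did not overlap at ZT2 and overlapped at ZT14. These times were picked after the values were seen and carry no test of their own.

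Between mice, the 9 genes moved together only weakly. After the mean of each diet and time was subtracted, the Pearson r of the 36 pairs ranged from -0.17 to 0.50 over the 47 mice, 31 were above 0, and their mean was 0.19 (standard error 0.059 from leaving out each mouse). The mean over all pairs of the 14580 genes tested was 0.15, so that the members stood only a little above it. TPM values share the total of their library. When the library totals were rescaled by median-of-ratios factors, an alternative chosen for all genes after the data were seen, the mean fell to 0.10 in the members and to 0.00016 in all genes.

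The pairs with the highest r were *Ifit1* and *Isg15* (Pearson r = 0.50, adjusted permutation p = 0.0820, Spearman rho = 0.54, adjusted permutation p = 0.0356), *Irf9* and *Ifit3* (r = 0.47, rho = 0.46), *Irf9* and *Ifit1* (r = 0.46, rho = 0.46) and *Ifit3* and *Isg15* (r = 0.43, rho = 0.47). The adjusted permutation p of these 4 pairs ran from 0.0820 to 0.0851 for r and from 0.0356 to 0.0419 for rho. None of the 36 pairs passed with Pearson r after adjustment over the pairs, with 10 at an unadjusted permutation p under 0.05. Those 4 passed with Spearman rho. The share of all gene pairs at these levels was not computed, while the mean r over all gene pairs was 0.15 on this scale. The rho calls were not repeated after rescaling. Without the 2 mice farthest from the median of the first gene, the 4 r values were 0.50, 0.42, 0.48 and 0.40. *Ifit3* had the highest mean r with the other members, 0.34, and *Usp18* the lowest, 0.04. *Ifit3* and *Isg15*, whose means over the day ran nearly opposite, were positively correlated within time points, a relation that passed with rho only. Within groups, the *Isg15* counts varied little beyond counting error (chi-square per degree of freedom 1.19). The mean r was 0.17 in control mice and 0.20 in PLX5622 mice, where 26 and 30 pairs were above 0. *Usp18* ran against *Isg15* and *Ifit1* in control mice (r = -0.56 and -0.51) but not in PLX5622 mice (r = 0.11 and 0.04). Neither the r within a diet nor the difference between diets was tested. Over the 47 mice both pairs had an adjusted permutation p of 0.529 for Pearson r. *Usp18* had only 12 to 44 reads per library, and control values of *Usp18* and *Ifit1* are flagged below as far from their groups.

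**Figure D4:**
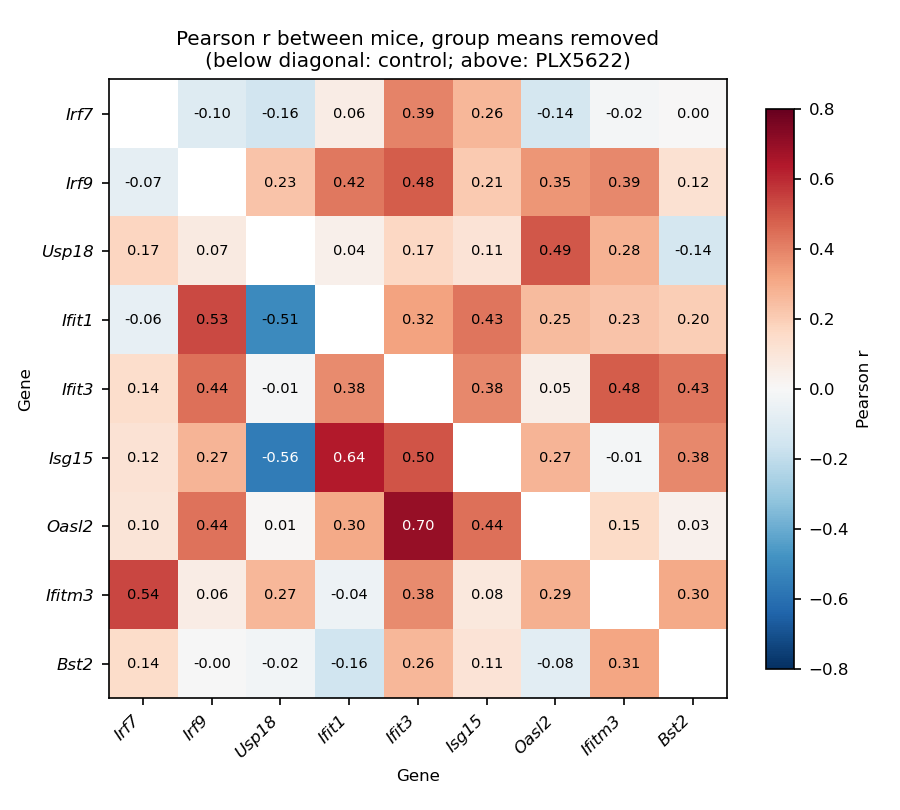
Pearson r between mice for each pair of the 9 interferon response genes in log2(TPM + 1) after subtracting the mean of each diet and Zeitgeber time, with control mice (n = 23) below and PLX5622 mice (n = 24) above the diagonal (colour scale from -0.8 to 0.8). Most cells are above 0, with *Ifit1* and *Isg15* at 0.64 in control and 0.43 in PLX5622 mice, and *Usp18* and *Isg15* at -0.56 in control mice.

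The gene whose pattern between mice was most like the mean pattern of the members was *Ifit2*, a further IFIT gene of chromosome 19, with r = 0.73 over the 47 mice, ranked 1 of 14571 genes. *Ccdc22*, *Stard4*, *Azin1*, *Clba1*, *Pex10*, *Ctnnbl1*, *Acat2*, *Tor1aip2* and *Oaz2* followed, with r from 0.71 to 0.67, and none of these was in an interferon pathway list. After median-of-ratios scaling *Ifit2* ranked 10 (r = 0.53), and 3 of the 10 genes were shared with the first ranking. The 10 with that scaling were led by *Ggta1* and *Bmp7* and held *Ifi27l2a* as the other pathway gene. The genes share the libraries and their totals, and the r values are given as a description.

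The mice of each diet also differed in how much microglial RNA they held. The mean of the 20 microglial markers in log2(TPM + 1) averaged 4.95 ± 0.147 (SD, n = 23) on control chow and 1.95 ± 0.565 (SD, n = 24) on PLX5622. Each member was compared with this level within each diet after subtracting the mean of each time, which gave 18 relations. *Irf7* in control mice was the only relation to pass with Pearson r (r = 0.79, adjusted permutation p = 0.00252), and it passed with Spearman rho as well (rho = 0.79, adjusted permutation p = 0.00288). Without the 2 control mice farthest from the median microglial level the r was 0.76. Of the 14559 tested genes outside the microglial list that varied in control mice, 0.769% had an r at least as high, and their median r was 0.25.

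In PLX5622 mice the r of *Irf7* was 0.11 (adjusted permutation p = 0.777), and the difference between diets was not tested. The mean *Irf7* level was 2.47 TPM ± 0.608 (SD, n = 23) in control and 2.44 TPM ± 0.529 (SD, n = 24) in PLX5622 mice. The microglial level differed between the diets by several times the spread in either. Which cells the *Irf7* RNA came from was not tested. *Ifitm3* was next in control mice, with r = 0.62 (adjusted permutation p = 0.0622) and rho = 0.70 (adjusted permutation p = 0.0125). Of the 14559 tested genes outside the microglial list, 7.75% had an r at least as high there. *Irf7* and *Ifitm3* had an r of 0.54 with each other in control mice, against -0.02 in PLX5622 mice. The other 7 members had r from -0.12 to 0.28 in control mice and the 9 had r from 0.03 to 0.36 in PLX5622 mice.

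**Figure D5:**
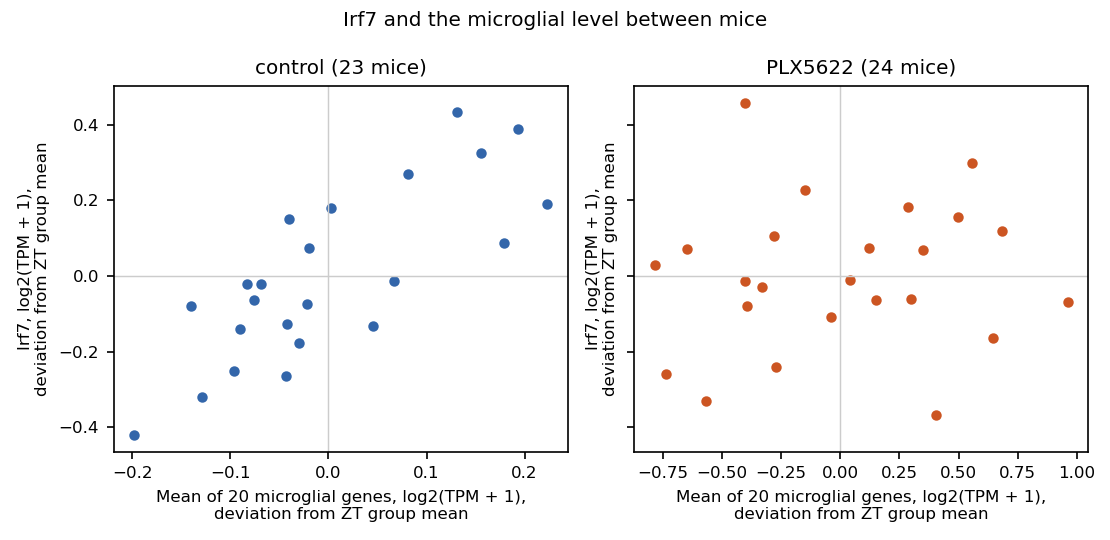
*Irf7* (y axes) against the mean of the 20 microglial marker genes (x axes), both in log2(TPM + 1) as deviations from the mean of each diet and Zeitgeber time, with 1 point per mouse. The 23 control mice rise together (r = 0.79) and the 24 PLX5622 mice show no such slope (r = 0.11), with a wider x axis in the PLX5622 panel.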

How the data were processed

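Libraries were grouped by diet and ZT from the sample labels. The authors deposited a TPM table, for which their methods name STAR, GRCm38 and Salmon with a Gencode annotation, and a table of whole-number counts per gene without normalization. Submitters' notes name STAR, featureCounts, edgeR, limma and mm10. Labels name NovaSeq and HiSeq instruments without saying which library was run on which, so a batch by instrument could not be tested. No further ZT14 control library was analysed here. The lowest chi-square per degree of freedom between libraries of a group was 4.30 over 69 pairs, so none counted as a duplicate. The methods say that mice were housed 4 to a cage; which libraries shared a cage is not given in the sources used here, so cage was not tested and p-values treat mice as independent.

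Differences were tested on the log2(TPM + 1) scale, where the mean over libraries was 1 TPM or more, with limma 3.58.1 in R 4.3.3, terms for diet and for the cosine and sine of ZT (24 h), and Benjamini-Hochberg adjustment over all genes at 0.05. Correlations used 100000 shuffles within groups (numpy 2.4.6, scipy 1.17.1) and were adjusted over 36 pairs or 18 relations. Scripts were tested on simulated data. Alternatives were other filters, a pseudocount of 0.1, rescaling, edgeR 4.0.16 and DESeq2 1.42.0 on the counts, a trended prior, ZT as a factor, the replicate number as a block, and each library left out. Text names the 9 members, pathway genes called for diet or rhythm, the 10 genes most like the members, and *Csf1r*; others named (*Ifnb1*, *Cldn5*, *Ly6c1*, *Ggta1*, *Bmp7*, *Ifi27l2a* and genes sharing sequence) were chosen after their values were seen. Members and lists were chosen with earlier results of these data known. All 233 listed symbols matched GENCODE M21. Depth limits low genes such as *Usp18*, and intervals between mice include counting error.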

Additional observations from a re-analysis of the deposited data

Results flagged for a closer look

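In groups of 4 mice, 3 values of 99 groups tested stood far from the other mice of their group, and chance gives about 1 in 20, or 4.95. *Ifit1* in control ZT22 replicate 3 was 2.45 TPM (89 reads), against 1.34 to 1.40 TPM (46 to 61 reads) in the other mice. *Usp18* in control ZT2 replicate 4 was 1.996 TPM (44 reads), against 0.911 to 1.05 TPM. *Usp18* in control ZT10 replicate 1 was 0.815 TPM (17 reads), against 1.18 to 1.22 TPM, but its CPM (its share of the counts) of 1.01 lay nearer the others, which ran from 1.17 to 1.81.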

How the results depend on the processing

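The diet count of 0 became 1, *Bst2*, with median-of-ratios and upper-quartile scaling, edgeR (expression filter, or DESeq2 size factors), DESeq2 and the replicate block, and it ranged from 0 to 1 with each library left out (1 without control ZT2 replicate 4, ZT10 replicates 1, 3 or 4, ZT18 replicates 1 or 4 or ZT22 replicate 4, or PLX5622 ZT2 replicate 4, ZT6 replicate 2, ZT10 replicate 2, ZT14 replicate 4 or ZT18 replicate 4). Without any filter, with edgeR without a filter, with a trend, with ZT as a factor and with a pseudocount of 0.1 it stayed at 0. The rhythm count of 2 became 1 with no filter (*Isg15* lost) and ranged from 1 to 2 with a library left out; *Isg15* was lost without control ZT2 replicates 2 or 3, control ZT14 replicate 2, PLX5622 ZT2 replicate 2 or PLX5622 ZT14 replicate 3. No member was called for a change of rhythm under any alternative. A mean of at least 5 TPM tested only *Ifit3*, *Isg15*, *Ifitm3* and *Bst2*. Differences of 3 genes near 0 changed sign with a library left out, ranging from -0.023 to 0.027 (*Irf7*), -0.025 to 0.012 (*Ifit3*) and -0.027 to 0.010 (*Ifitm3*). Over all genes, 298 to 1365 were called for diet and 585 to 2420 for rhythm, and edgeR without a filter called 17 for a change of rhythm. The mean r between members was 0.104 on CPM (shares of the counts) and 0.0963 after median-of-ratios scaling, and 0.167 to 0.205 with a library left out. Pairs called rose from 0 to 4 with Spearman rho and were 0 to 2 with a library left out, with 2 without PLX5622 ZT6 replicate 3, PLX5622 ZT14 replicate 3 or PLX5622 ZT22 replicate 3. Members called with the microglial level rose from 1 to 2 with Spearman rho and without subtracting means, and were 1 to 2 with a library left out (2 without control ZT10 replicate 1 or ZT22 replicate 1); the r of *Irf7* ran from 0.730 to 0.818 there and passed each time. Same-numbered mice of different groups had a mean r of 0.0512, with 76 of 253 pairs above 0.1. Mice with different numbers had a mean r of -0.0171, with 95 of 759 pairs above 0.1. The labels name no shared source, so the numbers were not taken as pairs. Same-numbered mice had the higher mean r. That not every such pair was above 0.1 cannot decide whether the numbers mark a shared source. Whether a batch follows the numbers was not tested. The replicate block gave 1 diet call among the members and changed no other member count, with 578 diet and 1043 rhythm calls over all genes. Causes of these changes were not tested. Counts per library limit *Usp18* (12 to 44) and *Isg15* (28 to 78) most.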
